A study of Mus musculus with 8 samples.

Results

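The tonicity factor Nfat5 and 7 of its osmolyte transporter, enzyme and chaperone targets were followed by RNA sequencing of the mouse distal convoluted tubule, the kidney segment that reabsorbs salt through the NaCl cotransporter. The 8 genes were set by name as the factor and its listed targets, with earlier results of these data known. All 8 were found among the 42416 gene identifiers of the count files. Of the 8, 7 held enough counts to be tested, and the betaine transporter gene Slc6a12 did not. The series held 8 libraries, 4 labelled Control and 4 labelled KO, each from another animal number. The KO animals carried a floxed allele of Cnb1 on both chromosomes (Cnb1fl Tg/Tg), and the Control animals carried none (Cnb1fl wt). Cnb1, gene symbol Ppp3r1, encodes the regulatory subunit of the phosphatase calcineurin. Animals of both groups carried the Cre transgene NCCcre (Tg/+), named for the NaCl cotransporter, and the reporter TOMATO (Tg/+), and both received tamoxifen by gavage at 2 mg per day for 5 days. Tubules were taken 3 weeks later, and each library came from 1000 fragments sorted on a large-particle sorter. The sources used here do not state the age and sex of the animals. The groups therefore differ in the floxed allele and share Cre, reporter and tamoxifen.

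Cells in concentrated surroundings take up or make small organic solutes, such as sorbitol, myo-inositol, taurine and betaine, that balance osmotic pressure without disturbing proteins. Nfat5 (also called TonEBP) is the transcription factor that drives this response. It shares the DNA-binding domain of the NFAT proteins that calcineurin activates, but lacks their calcineurin-binding region. It binds tonicity enhancer elements built on the core TGGAAA and switches on aldose reductase (Akr1b3), which makes sorbitol from glucose, and the transporters for myo-inositol (Slc5a3), taurine (Slc6a6) and betaine (Slc6a12). It also raises the heat shock proteins Hspa4l, also known as osmotic stress protein 94, and Hspa1a and Hspa1b, the paired copies of inducible Hsp70. In the kidney the response is strongest in the medulla, while the distal convoluted tubule lies in the cortex.

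RefSeq windows of the 250 bases before the transcription start (build GRCm38.p6) were at hand for 6 of the 8 genes, with no entry for Akr1b3 and Slc6a6. The core TGGAAA, searched on both strands, was found in 1 window, the first of 5 listed for Slc6a12 (chr6:121342324-121342573, plus strand), with its first base 75 bases before the start. Of 32851 such windows, 18.6% hold this core. The heat shock core GAANNTTC, also searched on both strands, was found in the windows of Hspa1a (chr17:34972157-34972406, minus strand) and Hspa1b (chr17:34959239-34959488, minus strand), 104 to 97 bases before the start, and 6.69% of all windows hold it. Its offset form TTCNNGAA was searched too and had no match in the windows of these genes. Either form is held by 12.8% of all windows. Both windows also held CCAAT, read on the opposite strand, 67 to 63 bases before the start, against 33.8% of all windows. The windows of Nfat5, Slc5a3 and Hspa4l held none of these letters, which says only that they are not within those 250 bases. The Slc6a12 window is shown as the one that held the factor's core, and the Hspa1 windows because they show how alike the copies are. Capitals mark TGGAAA in the Slc6a12 window and the GAANNTTC match in the Hspa1 windows.
Slc6a12: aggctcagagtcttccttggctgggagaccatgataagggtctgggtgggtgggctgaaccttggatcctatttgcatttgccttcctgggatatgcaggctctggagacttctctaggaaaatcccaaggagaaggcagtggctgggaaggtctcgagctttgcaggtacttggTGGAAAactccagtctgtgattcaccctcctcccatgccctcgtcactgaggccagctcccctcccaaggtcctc
Hspa1a: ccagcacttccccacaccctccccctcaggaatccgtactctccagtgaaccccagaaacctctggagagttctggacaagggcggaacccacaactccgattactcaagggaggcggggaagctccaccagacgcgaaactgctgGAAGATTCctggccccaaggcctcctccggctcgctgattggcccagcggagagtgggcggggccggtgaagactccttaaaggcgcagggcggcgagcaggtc
Hspa1b: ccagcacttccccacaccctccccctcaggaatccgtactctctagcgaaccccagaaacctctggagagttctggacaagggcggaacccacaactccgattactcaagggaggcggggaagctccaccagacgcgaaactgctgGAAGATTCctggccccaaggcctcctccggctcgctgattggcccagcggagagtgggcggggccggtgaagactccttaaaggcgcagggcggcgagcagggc
The Hspa1a and Hspa1b windows were identical at 247 of 250 positions (98.8%). The likeness continued in the coding part. The longest open reading frames were identical at 1918 of 1929 aligned positions (99.4%), with one identical run of 638 bases, so a read from within it fits both genes. The whole transcripts were less alike, with 85.3% of aligned positions identical and 47.1% of the 100-base windows of Hspa1a found in Hspa1b.

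Total counts ranged from 18161442 to 45150953 per library, and mitochondrial genes took 13.4% to 19.1% of them. The file names of the 2 deepest libraries, Control replicate 2 and KO replicate 1, hold an index sequence that the other 6 lack. The sources used here do not say what that form of name stands for. Ppp3r1 itself did not separate the groups, with group means of 97.4 ± 9.87 CPM (counts relative to library size, on a common scale) for Control and 86.2 ± 10.8 CPM for KO (SD, n = 4; log2 fold change -0.18, edgeR adjusted p = 0.548), so its count per gene is no check of the labels. The defining marker of the segment, Slc12a3, stood between 3911 and 8074 CPM in every library. Of 8 distal convoluted tubule markers 4 fell in KO (Pvalb, Trpm6, Calb1 and Klhl3) and none rose, where 0.876% of all genes tested fell. Fold changes were above 0 for 2 of the 8. Tmem52b was higher in every KO library (3614 to 3854 CPM) than in any Control library (2657 to 2955 CPM), without a call (edgeR adjusted p = 0.138). The 8 markers summed to 12108 to 16136 CPM in Control and 8546 to 12605 CPM in KO. Markers of thick limb (7549 to 12316 CPM in Control, 2840 to 5552 CPM in KO) and of proximal tubule (6296 to 14797 CPM and 3691 to 9798 CPM) were also present. Of 7 thick limb markers 1 fell, Umod, which made up most of their sum (edgeR adjusted p = 0.041), and none rose. Over all genes tested, 0.876% fell and 1.34% rose. Slc12a1, the next most abundant thick limb marker, overlapped between the groups (639 to 1263 CPM in Control, 254 to 896 CPM in KO). Fold changes were above 0 for 2 of the 7. In bulk libraries such as these, fewer cells of a type and less RNA per cell cannot be told apart.

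None of the 7 genes tested was called different between KO and Control, which does not show that they were unchanged. The test was edgeR's two-sided quasi-likelihood F test with Benjamini-Hochberg adjustment over all genes and a threshold of 0.05. Across the whole table it called 316 of 14268 genes (2.21%), with 191 higher (1.34%) and 125 lower (0.876%) in KO. Leaving out 1 library moved that number to between 36 (without KO replicate 2) and 388 (without KO replicate 3). No gene of the group passed even an unadjusted p under 0.05, which 13.9% of all genes did, and no gene of the group had Control and KO values that failed to overlap, which held for 9.44% of all genes. DESeq2 called 4.54% of its genes and limma-voom 3.64%, and neither called any of the 7. Fold changes were above 0 for 3 genes (Nfat5, Slc5a3 and Hspa4l) and below 0 for 4, with a median of -0.23 on the log2 scale and a range of -0.72 to 0.39. The median over all genes tested was -0.02. At these background rates a count of 0 out of 7 is near the background and is no result about the group.

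**Figure D1:**
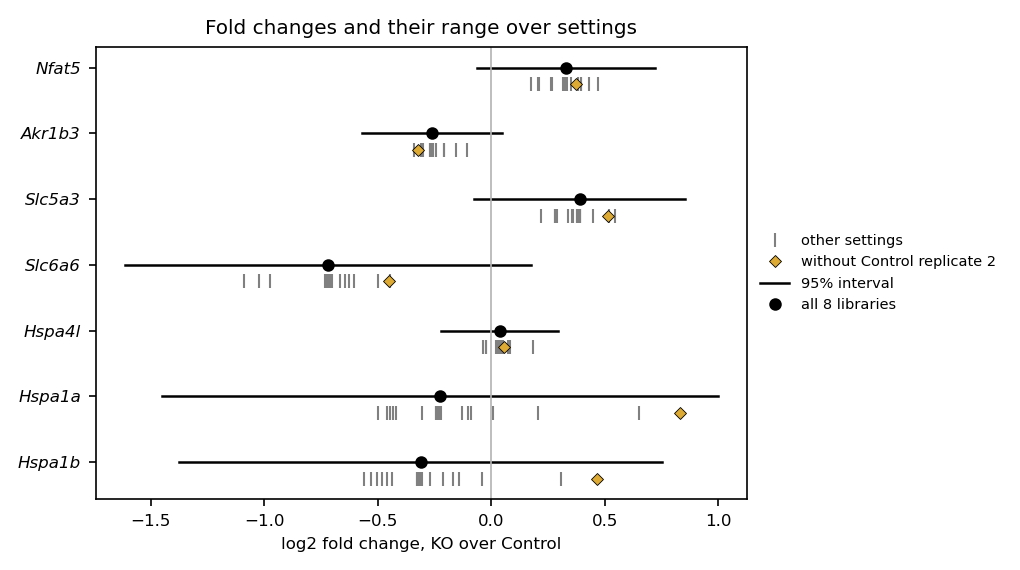
Log2 fold change of KO over Control for the 7 tested genes, with the 95% interval from all 8 libraries (black) and the estimates under 18 other settings below each (grey ticks, with the fit without Control replicate 2 as a yellow diamond). Every interval includes 0, and the Hspa1a and Hspa1b estimates move from below 0 to above it without Control replicate 2.

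Nfat5 (chromosome 8, 107293470 to 107379517, plus strand, GRCm38) was expressed at a moderate level in all libraries. The Control libraries, in the order of replicates 1 to 4, held 47.8, 69.7, 66.8 and 72.6 CPM, and the KO libraries held 98.5, 63.1, 89.2 and 71.9 CPM. The lowest value was in Control replicate 1 and the 2 highest were in KO, but the groups overlapped. The means were 64.2 ± 11.2 CPM for Control and 80.7 ± 16.1 CPM for KO (SD, n = 4). The log2 fold change was 0.33 ± 0.18 (SE), with a 95% interval of -0.06 to 0.72 (edgeR adjusted p = 0.426). Messenger RNA is only one layer of Nfat5 control, since the protein is also regulated by entry into the nucleus and by phosphorylation, which these libraries do not measure.

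Aldose reductase, Akr1b3 (chromosome 6, 34302434 to 34317478, minus strand), the enzyme that makes sorbitol, had 45.2, 32.4, 37.4 and 33.1 CPM in the Control libraries and 27.0, 31.3, 35.3 and 29.8 CPM in the KO libraries. The highest value was in Control replicate 1 and the lowest in KO replicate 1, the reverse of Nfat5, and the groups overlapped. The mean went from 37.0 ± 5.89 CPM to 30.9 ± 3.46 CPM (SD, n = 4), a log2 fold change of -0.26 ± 0.14 (SE; 95% interval -0.57 to 0.05, edgeR adjusted p = 0.424).

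The myo-inositol transporter gene Slc5a3 (chromosome 16, 92058322 to 92087473, plus strand) was the most abundant of the 8. Control libraries held 252, 331, 267 and 208 CPM and KO libraries 457, 248, 297 and 383 CPM. KO replicates 1 and 4 stood above every Control library, while KO replicates 2 and 3 lay within the Control range. The means were 264 ± 51.0 CPM and 346 ± 92.2 CPM (SD, n = 4), and the log2 fold change was 0.39 ± 0.21 (SE; 95% interval -0.07 to 0.85, edgeR adjusted p = 0.429). Slc5a3 shares 159 exon bases on the same strand with Mrps6, a mitochondrial ribosomal protein gene that held 58.9% as many counts. The sources used here do not say how reads in the shared bases were counted. Mrps6 itself had a mean of 189 ± 75.4 CPM among Control libraries and 196 ± 24.4 CPM among KO libraries (SD, n = 4; log2 fold change 0.05, edgeR adjusted p = 0.933).

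The taurine transporter gene Slc6a6 (chromosome 6, 91684053 to 91759066, plus strand) varied most among the transporters that were tested. Control libraries held 30.9, 108, 74.8 and 74.3 CPM and KO libraries 43.4, 37.1, 73.1 and 21.7 CPM. Control replicate 1 sat with the lower KO libraries and KO replicate 3 sat with the Control libraries, so the groups overlapped. The highest library was 4.99 times the lowest, against 2.06 times for Nfat5 and 1.32 times for Hspa4l. The mean was 72.1 ± 31.7 CPM for Control and 43.8 ± 21.5 CPM for KO (SD, n = 4). The log2 fold change was -0.72 ± 0.40 (SE), with a 95% interval of -1.61 to 0.18 (edgeR adjusted p = 0.449), and leaving out 1 library gave -0.45 (without Control replicate 2) to -1.09 (without KO replicate 3). Over the settings tried, the adjusted p ran from 0.096 with limma-voom to 0.739.

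Proximal tubule markers also varied between libraries, and their values are set beside Slc6a6. Their summed level was 6296, 12013, 14797 and 7038 CPM in the Control libraries and 7550, 5734, 9798 and 3691 CPM in the KO libraries. KO replicate 4 was lowest for Slc6a6 and for the marker sum, and Control replicate 2 was highest for Slc6a6 and next to highest for the sum. Control replicate 4 had a lower sum than KO replicate 1 but more Slc6a6 (74.3 against 43.4 CPM). Kap made up most of each sum, with 4547 CPM in Control replicate 4 and 5170 CPM in KO replicate 1. Slc34a1, the next most abundant marker, was highest in Control replicate 2 (1851 CPM). It stood at 1251 CPM in Control replicate 4 and 1175 CPM in KO replicate 1, while Lrp2 stood at 396 and 415 CPM. Of the 10 proximal markers none was called, against 2.21% of all genes. All 10 had fold changes below 0, and their median was -0.55. The part of proximal fragments or RNA in the Slc6a6 values was not tested.

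The betaine transporter gene Slc6a12 (chromosome 6, 121343076 to 121365775, plus strand) was barely detected, with 4, 0, 2 and 1 counts in the Control libraries and 8, 3, 0 and 1 in the KO libraries. In the libraries with no count, a count of 0 allows up to 0.0708 CPM (Control replicate 2) and 0.119 CPM (KO replicate 3) at 3 counts of the library total, for counting error only. The summed counts were 7 in Control and 12 in KO, which gives a depth-scaled ratio of 1.60 (95% counting interval 0.580 to 4.79). KO replicate 1 gave 8 of the 12, and the mean over libraries went the other way, at 0.0874 ± 0.0835 CPM for Control and 0.0826 ± 0.0723 CPM for KO (SD, n = 4). A difference between the groups was not detectable at this depth.

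Hspa4l (chromosome 3, 40744495 to 40796103, plus strand), a relative of Hsp70 that assists it, was the steadiest of the 8. Control libraries held 68.6, 80.6, 83.7 and 77.2 CPM and KO libraries 80.1, 77.6, 69.5 and 90.8 CPM. The ranges covered each other almost wholly. The means were 77.5 ± 6.53 CPM and 79.5 ± 8.78 CPM (SD, n = 4), and the log2 fold change was 0.04 ± 0.12 (SE; edgeR adjusted p = 0.904). Its 95% interval, -0.22 to 0.30, was the narrowest of the 7.

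Hspa1a (chromosome 17, 34969190 to 34972156, minus strand) and Hspa1b (chromosome 17, 34956436 to 34959238, minus strand) encode inducible Hsp70, a chaperone made in response to heat, protein damage and hypertonicity. Hspa1a stood at 18.3, 85.4, 17.9 and 12.5 CPM in the Control libraries and at 38.9, 21.0, 22.0 and 33.4 CPM in the KO libraries. Hspa1b stood at 28.4, 105, 34.2 and 20.15 CPM in Control and at 49.7, 24.1, 29.0 and 49.4 CPM in KO. Control replicate 2 was far above every other library for both genes, and the other 3 Control libraries were lower for Hspa1a than any KO library. The means were 33.5 ± 34.7 CPM and 28.8 ± 8.76 CPM for Hspa1a and 47.0 ± 39.3 CPM and 38.0 ± 13.4 CPM for Hspa1b (SD, n = 4). The log2 fold change of Hspa1a was -0.23 ± 0.55 (SE; 95% interval -1.45 to 1.00, edgeR adjusted p = 0.865). That of Hspa1b was -0.31 ± 0.48 (SE; 95% interval -1.37 to 0.75, edgeR adjusted p = 0.781). Without Control replicate 2 both turned positive, to 0.83 for Hspa1a (edgeR adjusted p = 0.181) and 0.46 for Hspa1b (edgeR adjusted p = 0.498).

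Because the coding parts are near-identical, the split of those reads between the copies is uncertain, and they were also summed. Hspa1a took between 34.3% and 46.6% of the pair's counts in every library. The pair had 46.8, 191, 52.0 and 32.6 CPM in the Control libraries and 88.6, 45.1, 51.0 and 82.7 CPM in the KO libraries. KO replicates 1 and 4 were higher than 3 of the 4 Control libraries, and KO replicates 2 and 3 lay among these 3. Merged as 1 row, the log2 fold change was -0.27 ± 0.50 (SE; edgeR adjusted p = 0.821). The mean log2(CPM + 1) differed by 0.03, and an exact two-sided permutation test over the 70 assignments of libraries gave p = 0.971, where the smallest p possible is 0.0286. Without Control replicate 2 the merged fold change was 0.61 (edgeR adjusted p = 0.349), and in the 6 libraries with plain file names it was 0.44 (edgeR adjusted p = 0.586).

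**Figure D2:**
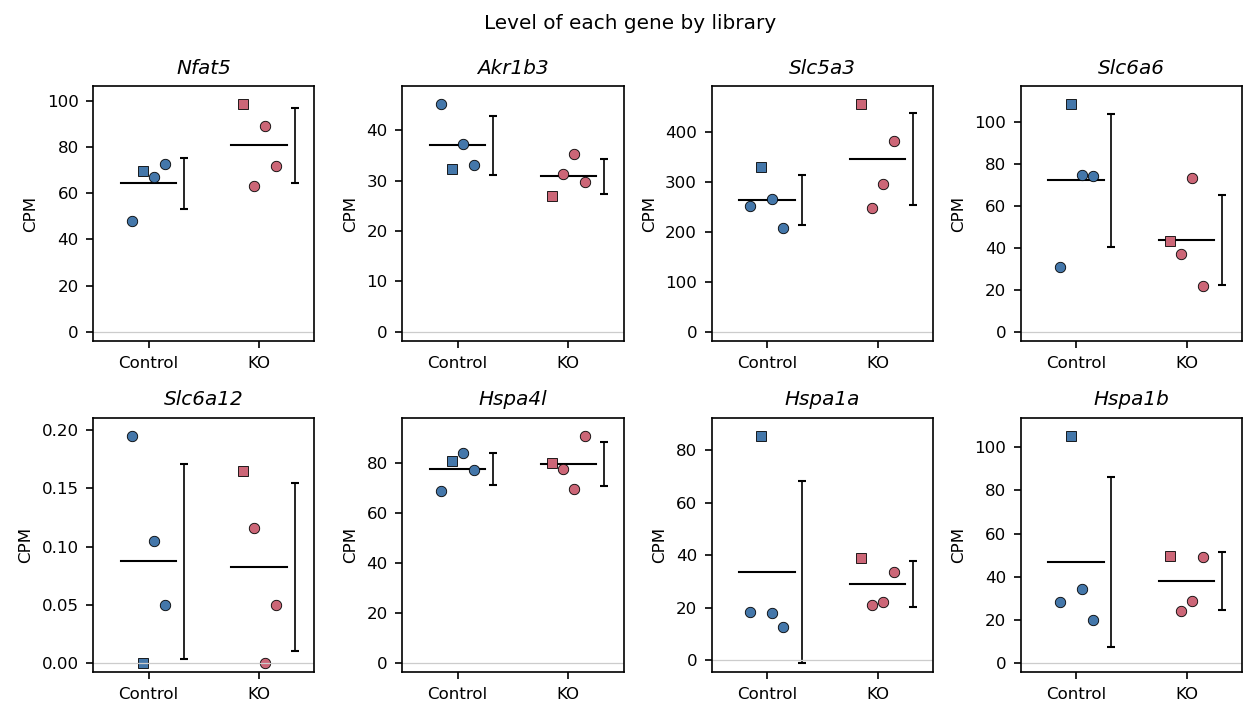
Level in CPM of each of the 8 genes in the 4 Control (blue) and 4 KO (red) libraries, with the group mean (line) and SD (bar), where squares are the 2 libraries whose file names hold an index sequence and circles the other 6. The groups overlap in every panel, Control replicate 2 stands alone in the Hspa1a and Hspa1b panels, and Slc6a12 stays under 0.2 CPM.

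Levels of different genes were ordered per kilobase of exon. In Control, Slc5a3 had a mean of 24.2 CPM per kilobase, followed by Hspa1b at 16.8, Hspa1a at 11.3, Slc6a6 at 8.52, Hspa4l at 6.57, Akr1b3 at 4.41 and Nfat5 at 3.49 CPM per kilobase. Slc6a12 was last at 0.0286 CPM per kilobase. The ranges of neighbours in that order overlapped, except between Hspa4l and Akr1b3 and between Nfat5 and Slc6a12. In KO the order was Slc5a3 (31.7 CPM per kilobase), Hspa1b (13.6), Hspa1a (9.71), Hspa4l (6.74), Slc6a6 (5.18), Nfat5 (4.39), Akr1b3 (3.68) and Slc6a12 (0.0271). Here only Slc5a3 and Hspa1b, and Akr1b3 and Slc6a12, had ranges that did not overlap. Slc5a3 was thus the leading transporter of the 3 in both groups, by level and per length, and Hspa4l and Slc6a6, and Akr1b3 and Nfat5, traded places within overlapping ranges.

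**Figure D3:**
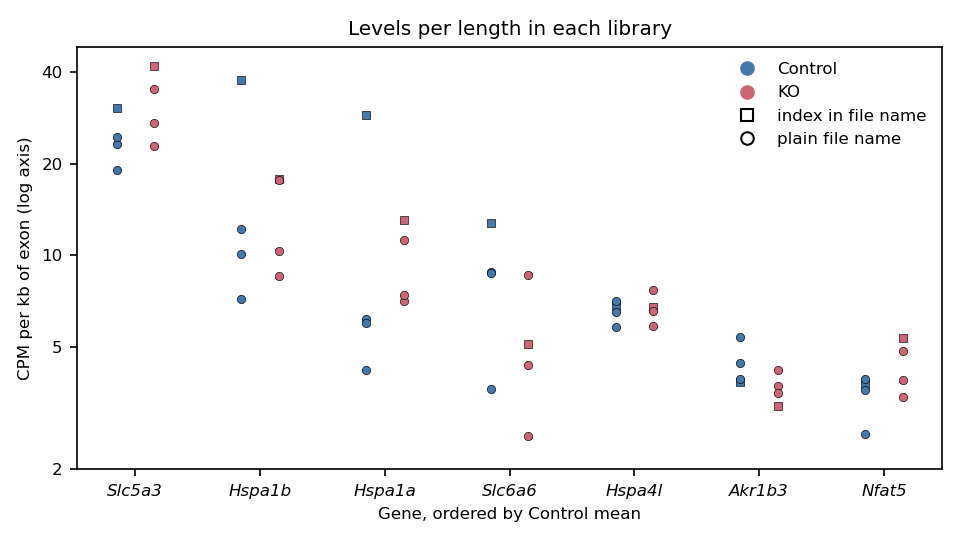
Level per kilobase of exon (log axis) of the 7 genes with more than a few counts in each library, ordered by the Control mean, with Control in blue and KO in red, and squares for the 2 libraries whose file names hold an index sequence. By the Control mean Slc5a3 is highest and Nfat5 lowest, and the single high Control square of Hspa1a and Hspa1b is Control replicate 2.

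Whether libraries with more Nfat5 messenger RNA held more of its targets was tested across the 8 libraries on log2(CPM + 1). None of the 7 relations passed after Benjamini-Hochberg adjustment over the 7. The strongest was with Akr1b3, and it was negative (Pearson r = -0.74, exact permutation p = 0.0406, adjusted p = 0.284; Spearman rho = -0.50, exact permutation p = 0.216, adjusted p = 0.701). It rested on Control replicate 1 and KO replicate 1, since r was 0.27 without these 2. For Slc5a3 r was 0.58 and rho 0.50 (exact permutation p = 0.13 and p = 0.216, adjusted p = 0.456 and 0.701), and r was 0.19 without the same libraries. For the other 5 targets r lay between -0.37 (Slc6a12) and 0.27 (Slc6a6), with adjusted p = 0.628 from the exact permutation test for each. Within the 6 libraries with plain file names, Akr1b3 had r = -0.61 and Slc5a3 r = 0.28 (exact permutation adjusted p = 0.676 and 0.882). The relation with Slc6a12 passed there (r = -0.98, exact permutation adjusted p = 0.0194), on 0 to 4 counts per library. The 2 libraries with an index sequence are too few for a value of their own.

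As a description over the same 8 libraries, the levels most like Nfat5 among 9345 genes with a mean of at least 10 CPM were those of Helz, an RNA helicase (r = 0.98), Socs7, a suppressor of cytokine signalling (r = 0.98), and Usp6nl, a regulator of Rab GTPases (r = 0.98). Akr1b3 was nearest to Msantd4 (r = 0.98), Slc5a3 to Krit1 (r = 0.97), Slc6a6 to Pitpnc1 (r = 0.99) and Hspa4l to Abtb2 (r = 0.93). Hspa1a and Hspa1b were each nearest to the other (r = 0.96). Slc6a12, at 0 to 8 counts per library, is too low for such a likeness to be read. Of the other members, none was the nearest gene of another. The points share library depth and preparation.

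Outside the 8 genes, other steps of osmolyte handling were followed in a list of 21 genes, all of which were tested. None rose and 1 fell, where 1.34% of all genes tested rose and 0.876% fell, and the median log2 fold change was -0.06. Control and KO values did not overlap for 5 of the 21, against 9.44% of all genes. The gene that fell was Isyna1, the enzyme that makes myo-inositol from glucose 6-phosphate. It had 180, 94.6, 96.0 and 154 CPM in the Control libraries and 51.2, 38.9, 33.3 and 38.1 CPM in the KO libraries. Every KO library was below every Control library, and the mean went from 131 ± 42.8 to 40.4 ± 7.63 CPM (SD, n = 4), a log2 fold change of -1.70 ± 0.23 (SE; edgeR adjusted p = 0.0102). Without KO replicate 2 the value was -1.68 with an edgeR adjusted p of 0.055. The transporters that take up myo-inositol did not pass the test, neither Slc5a3 nor, at lower levels, Slc5a11 (log2 fold change -0.40, edgeR adjusted p = 0.711) and Slc2a13 (log2 fold change -0.0043, edgeR adjusted p = 0.997). Whether their fold changes differ from that of Isyna1 was not tested. Miox, which breaks down myo-inositol, had a log2 fold change of -0.63 (edgeR adjusted p = 0.447), and Sord, which oxidizes sorbitol, one of -0.55 (edgeR adjusted p = 0.346). Both had their lowest level in KO replicate 4, the library with the lowest proximal marker sum, at 171 CPM for Miox and 215 CPM for Sord. Among single markers, Control replicate 1 was below KO replicate 4 for some, such as Slc34a1 (476 against 547 CPM). It was above KO replicate 4 for others, such as Kap (5264 against 2598 CPM). The part of proximal RNA in these values was not tested.

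Of 30 heat shock proteins and co-chaperones 28 were tested, none rose and 1 fell (1.34% and 0.876% of all genes), with a median of -0.10. Control and KO values did not overlap for 2 of the 28, against 9.44% of all genes. Cryab, which encodes the small heat shock protein alpha B-crystallin, had 28.4, 16.7, 23.7 and 23.1 CPM in Control and 13.3, 8.98, 12.8 and 7.57 CPM in KO. The groups did not overlap, and the log2 fold change was -1.10 ± 0.22 (SE; edgeR adjusted p = 0.0373). The call was lost in 8 of 18 other settings, with adjusted p up to 0.129. These included leaving out Control replicate 1 (0.0711), Control replicate 3 (0.102), Control replicate 4 (0.114), KO replicate 2 (0.129) or KO replicate 4 (0.0911), and the block for the series of animal numbers (0.108). The abundant chaperones Hsp90ab1 (1295 CPM in Control, 1257 CPM in KO) and Hspa8, the constitutive Hsp70 (999 and 907 CPM), had log2 fold changes of -0.04 and -0.14 (edgeR adjusted p = 0.912 and 0.839). Both turned positive on library totals and without Control replicate 2, where Hsp90ab1 was at 0.09 and Hspa8 at 0.11.

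Upstream of the factor, none of 21 tested regulators of Nfat5 out of 23 was called, against 2.21% of all genes. An unadjusted edgeR p under 0.05 was reached by 1 of them, and by 13.9% of all genes. Their median was 0.12. That gene was Kpna2, a nuclear import receptor (log2 fold change 0.59 ± 0.20, SE; edgeR adjusted p = 0.224). Dhx9, an RNA helicase that binds Nfat5, had a log2 fold change of 0.27 (edgeR adjusted p = 0.383). The regulators with most counts, Ddx5 and Rac1, had log2 fold changes of 0.10 and -0.07 (edgeR adjusted p = 0.737 and 0.817), and Rac1 turned positive on library totals.

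Among 17 tested of 18 cell volume channels and transporters none passed the test, against 2.21% of all genes, and their median was 0.08. Control and KO values did not overlap for 3 of the 17, Slc12a4 and Wnk1 among them, against 9.44% of all genes. The K-Cl cotransporter gene Slc12a4 had 20.01 to 25.7 CPM in Control and 27.4 to 43.6 CPM in KO, with no overlap. Its log2 fold change was 0.63 ± 0.15 (SE; edgeR adjusted p = 0.0766), and it passed with DESeq2 (adjusted p = 0.0147), limma-voom (adjusted p = 0.0241), library totals (edgeR adjusted p = 0.0383) and without KO replicate 3 (edgeR adjusted p = 0.0343). Wnk1 encodes a kinase that sets the activity of chloride cotransporters through Stk39. Counted per gene, which does not separate its transcript forms, Wnk1 had 2942 to 3707 CPM in Control and 2017 to 2698 CPM in KO. Its log2 fold change was -0.56 ± 0.15 (SE; edgeR adjusted p = 0.107), and it passed with DESeq2 (adjusted p = 0.00499) and limma-voom (adjusted p = 0.0188). Stk39 had a log2 fold change of -0.24 (edgeR adjusted p = 0.373).

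Of 18 other genes that respond to tonicity 14 were tested and none passed, against 2.21% of all genes, with a median of -0.15. Control and KO values did not overlap for 1 of the 14, S100a4, against 9.44% of all genes. The calcium-binding protein gene S100a4 had 0.351 to 0.488 CPM in Control and 0.590 to 6.57 CPM in KO, a log2 fold change of 2.65 ± 0.73 (SE; edgeR adjusted p = 0.116). It passed with DESeq2 (adjusted p = 0.00298) and without KO replicate 3 (edgeR adjusted p = 0.0436). KO replicate 4 held 131 of the 246 KO counts of S100a4. Without that library its log2 fold change was 1.60 (edgeR adjusted p = 0.265). S100a4 shares 302 exon bases with Gm42674, which held 89.2% as many counts. Markers of leukocytes, which also express S100a4, summed to 18.6 to 24.98 CPM in Control and 27.3 to 79.3 CPM in KO. Csf1r alone made up 72.2 of the 79.3 CPM in KO replicate 1. The other 7 markers summed to 11.5 to 17.2 CPM in Control and 7.01 to 24.8 CPM in KO, which overlap. Among these 7, Cd68 stood at 0.418 to 0.577 CPM in Control and 0.787 to 3.81 CPM in KO. Its log2 fold change was 1.96 (edgeR adjusted p = 0.116), and that of Ptprc was 1.56 (edgeR adjusted p = 0.172). Cd68 and Ptprc, like S100a4, were highest in KO replicate 4. Cd74 went the other way, with a log2 fold change of -0.73 (edgeR adjusted p = 0.533). Csf1r shares 873 exon bases on opposite strands with Hmgxb3, which held 149% as many counts. None of the 6 tested of 8 leukocyte markers was called, against 2.21% of all genes. Fold changes were above 0 for 4 of the 6 and below 0 for 2. Cd3e had a count in 3 of the 8 libraries. The part of leukocytes in the S100a4 values was not tested. The water channel gene Aqp3 had a log2 fold change of -0.82 (edgeR adjusted p = 0.262). Aqp3 is also 1 of 8 markers listed for connecting tubule and principal cells. None of these 8 was called, against 2.21% of all genes, all 8 had fold changes below 0, and their median was -0.92. The part of such cells in the Aqp3 values was not tested. Atp1b1, at 5442 CPM in Control, had a log2 fold change of 0.07 (edgeR adjusted p = 0.84).

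**Figure D4:**
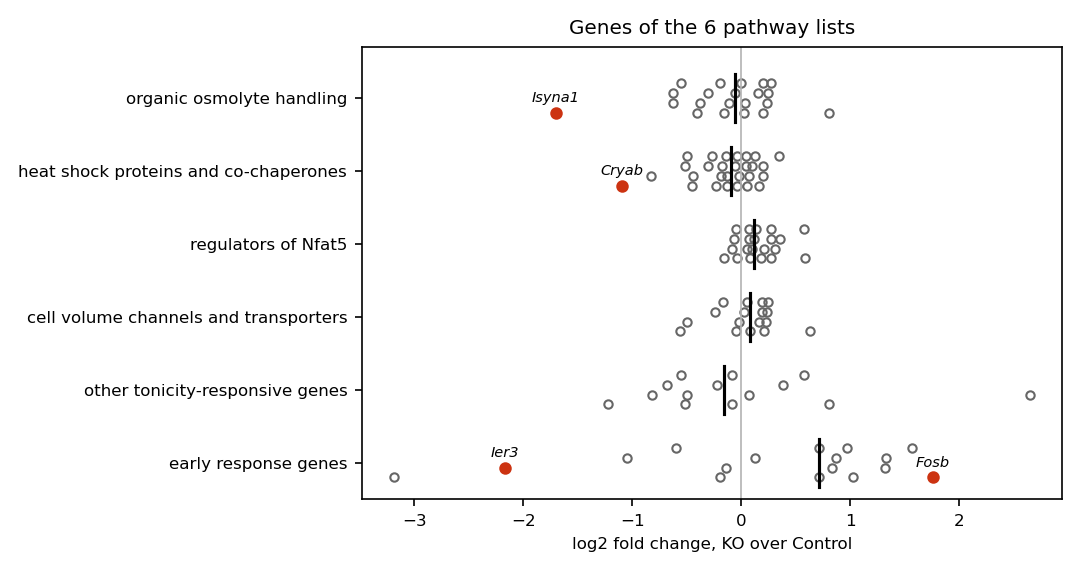
Log2 fold change of KO over Control of each tested gene in the 6 pathway lists, with genes past an adjusted p of 0.05 in red and named and the median of each list as a black bar. Apart from the early response genes, the medians lie between -0.15 and 0.12, and Isyna1, Cryab, Ier3 and Fosb are the 4 genes past the threshold.

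Genes of the early response, which tissue handling and many other stimuli switch on within minutes as they do inducible Hsp70, were followed beside the Hspa1 pair. Of 18, 17 were tested, 1 rose and 1 fell (1.34% and 0.876% of all genes), and the median was 0.72. Control and KO values did not overlap for 3 of the 17, against 9.44% of all genes. Control replicate 2 had the highest sum of these genes, though not the highest level of each, since every KO library held more Fosb. Without Control replicate 2, 4 rose (Fosb, Jun, Zfp36 and Klf6, with log2 fold changes of 1.04 to 1.91 and edgeR adjusted p of 0.024 to 0.0339) and none fell. Jun, Zfp36 and Klf6 are named after their values were seen. Without Control replicate 4 none of the 17 passed. Fosb, a subunit of the transcription factor AP-1, had 7.27, 7.75, 4.39 and 4.86 CPM in Control and 15.6, 14.7, 27.2 and 25.3 CPM in KO, with no overlap. Its log2 fold change was 1.76 ± 0.27 (SE; edgeR adjusted p = 0.0142), and 1.67 without Control replicate 4 (edgeR adjusted p = 0.0596). With a block for the series of animal numbers it was 1.64 (edgeR adjusted p = 0.097). Ier3, an early response gene linked to cell survival, had 183, 413, 99.4 and 99.3 CPM in Control and 27.2, 48.7, 65.3 and 36.0 CPM in KO. Its log2 fold change was -2.17 ± 0.47 (SE; edgeR adjusted p = 0.049), which lost the call in 13 of 18 settings, with adjusted p up to 0.15. Leaving out any 1 library other than KO replicate 3 was enough, with Control replicate 1 at 0.0839, Control replicate 2 at 0.0588, Control replicate 3 at 0.0593, Control replicate 4 at 0.0684, KO replicate 1 at 0.131, KO replicate 2 at 0.145 and KO replicate 4 at 0.15. With the block the adjusted p of Ier3 was 0.0962. Egr1 and Fos, the early response transcription factor genes with most counts, had log2 fold changes of 0.87 and 1.33 (edgeR adjusted p = 0.706 and 0.186). Egr1 was at -0.10 without KO replicate 3 (edgeR adjusted p = 0.967) and at 3.01 without Control replicate 2 (edgeR adjusted p = 0.0804). Fos was at 1.84 without Control replicate 2 (edgeR adjusted p = 0.0504).

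The summed early response genes stood at 781, 2520, 500.5 and 544 CPM in the Control libraries and at 919, 874, 1783 and 1626 CPM in the KO libraries. Control replicate 2, the library with most Hspa1a and Hspa1b, was also highest here. Across the 8 libraries the Hspa1 pair and the mean log2(CPM + 1) of these genes had Pearson r = 0.76 (exact permutation p = 0.0231) and Spearman rho = 0.64 (exact permutation p = 0.0962), and r was 0.68 without Control replicates 2 and 3. The relation did not pass without Control replicate 2 alone (r = 0.57, exact permutation p = 0.185) or within the 6 libraries with plain file names (r = 0.64, exact permutation p = 0.179). The call was thus lost without Control replicate 2, and no other library was left out singly for this relation.

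**Figure D5:**
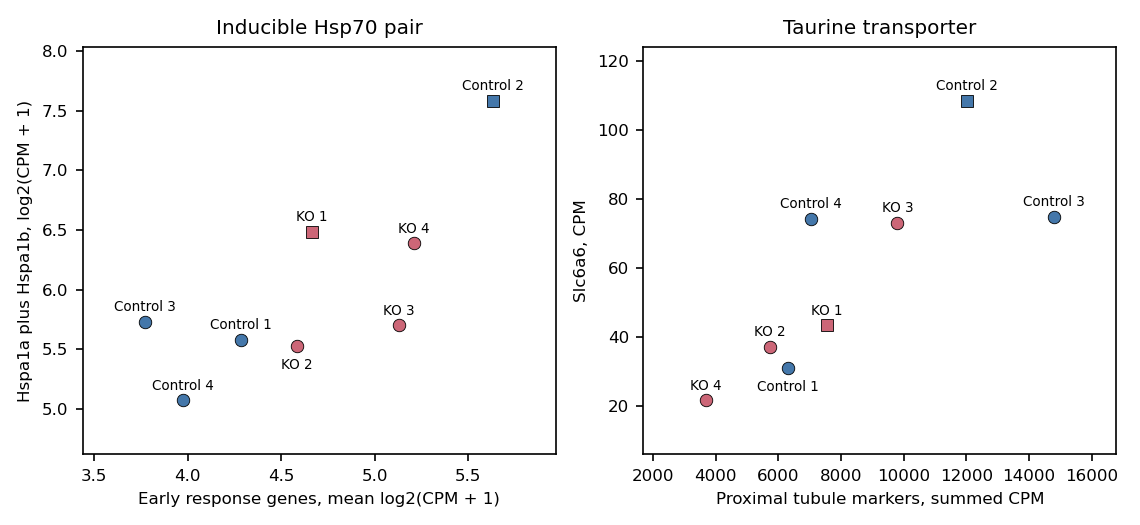
Left, log2(CPM + 1) of Hspa1a plus Hspa1b against the mean log2(CPM + 1) of the early response genes, and right, CPM of Slc6a6 against the summed CPM of proximal tubule markers, with 1 point per library (blue Control, red KO, squares for file names with an index sequence). Control replicate 2 is highest on both axes at left, and KO replicate 4 is lowest on both axes at right, where Kap makes up most of each marker sum.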

How the data were processed

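The members and the gene lists were chosen with earlier results of these data known. The deposited files hold whole-number counts per Ensembl gene, made by the authors and not normalized. The tools named in the submitters' processing notes are STAR 2.7.4a, fastp 0.20.0 and bcl2fastq 2.20, and the build is GRCm38.p6. The sources used here do not name the counting program, its strand setting or its treatment of reads that fit several genes. Groups came from the genotype label, and replicate numbers only name libraries. Names, coordinates and exon lengths came from GENCODE vM21, which named 42347 of 42416 identifiers. The other 69 held 0.0199% of counts. Whether the animals shared a litter or a preparation day is not stated.

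Genes kept by filterByExpr were scaled by TMM and tested with edgeR 4.0.16 (R 4.3.3, genotype as the single factor, all 8 libraries). DESeq2 1.42.0 and limma 3.58.1 were alternatives, and the fit was tested on simulated data. Levels are CPM on TMM-scaled sizes. Standard errors are the fold change over the square root of F, and 95% intervals use the t quantile of the test's degrees of freedom. Permutation tests were exact (SciPy 1.17.1, Python 3.11.15). Counting intervals cover counting error only. The genes named are all 8 members, in each list those past the threshold (or the 2 with the smallest p if none passed) plus the 2 with most counts, and the genes with the most similar levels (3 for Nfat5, 1 for each other member). A result that this rule took is not reported here.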

Additional observations from a re-analysis of the deposited data

Results flagged for a closer look

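Control replicate 2 stood apart from the other 3 Control libraries for both copies of inducible Hsp70. Hspa1a was at 85.4 CPM there against 12.5 to 18.3 CPM in the others, Hspa1b at 105 CPM against 20.15 to 34.2 CPM, and the summed pair at 191 CPM against 32.6 to 52.0 CPM. The same library held 430.5 CPM of Egr1, where the other Control libraries held 22.2 to 34.3 CPM, and the summed early response genes were at 2520 CPM against 500.5 to 781 CPM. These 5 values come from 1 library and are not independent. Control replicate 1 stood apart for the summed endothelial markers, at 22.0 CPM against 38.0 to 40.2 CPM. In all, 78 groups of 4 libraries were examined and 6 held a library apart, while chance alone puts a library apart in about 1 of 20 groups.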

How the results depend on the processing

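None of the 7 tested members passed the threshold under any of 18 other settings. Of their 126 fold changes under these settings 117 kept their sign and 9 reversed. Hspa4l was at -0.024 with limma-voom, and leaving out 1 library gave -0.035 to 0.084. Hspa1a was at 0.0052 with limma-voom, 0.20 with file-name form as a term and 0.65 in the 6 libraries with plain file names, and leaving out 1 library gave -0.50 to 0.83. Hspa1b was at 0.31 in those 6, and -0.56 to 0.46 without 1 library. The summed pair was at 0.063 with the file-name term and 0.44 in the 6, and -0.53 to 0.61 without 1 library. Its difference in mean log2(CPM + 1) ran from -0.27 to 0.57 without 1 library. The 6 libraries were chosen after seeing the data. On library totals, which move the median of all genes from -0.02 to 0.13, Hsp90ab1 was at 0.10, Hspa8 at 0.0042 and Rac1 at 0.086. Rac1 was at 0.0090 with limma-voom and Hsp90ab1 at 0.12 in the 6 libraries. Without 1 library, Hsp90ab1 ran from -0.11 to 0.090, Hspa8 from -0.34 to 0.11, Rac1 from -0.11 to 0.024 and Egr1 from -0.10 to 3.01.

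Genes past the threshold numbered 754 with DESeq2, 519 with limma-voom, 140 at a filter of 5 CPM in 4 libraries, 199 with the file-name term, 29 with a block for the series of animal numbers and 56 in the 6 libraries. They ran from 36 to 388 without 1 library (198, 166, 111 and 53 without Control replicates 1 to 4, and 175, 36, 388 and 110 without KO replicates 1 to 4). Of the list genes, 4 in the main test, 9 passed with DESeq2, 2 with the file-name term, 1 with the block and 1 to 6 without 1 library. With the block, Cryab (adjusted p = 0.108), Fosb (adjusted p = 0.097) and Ier3 (adjusted p = 0.0962) lost their calls in edgeR. In the 6 libraries 1 relation with Nfat5 passed, and the Hspa1 pair and early response genes had r = 0.64, against 0.57 without Control replicate 2. The cause was not tested for any of these. The block used the animal number series in the titles, which puts Control 1 with KO 1 and Control 2 and 3 with KO 2, 3 and 4 and leaves Control 4 alone, since the labels give no replicate numbers. Depth limits Slc6a12, at 0 to 8 counts.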
